A study of Mus musculus with 2 samples.

Results

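The cancer cells of a mouse ovarian tumor model were followed through 10 genes, Lgals7, Cdkn2a, Krt8, Krt18, Krt19, H19, Mgp, Wt1, Pax8 and Msln, of the 32285 genes counted. The genes were listed by name, with their behaviour in these data already known, and all 10 were found by symbol. They are Lgals7 and Cdkn2a as leading genes of the cancer cells, the simple epithelial keratins, the imprinted RNA H19, the matrix protein gene Mgp, and a trio of ovarian and mesothelial genes. The libraries came from subcutaneous tumors of SO, an established line grown from ovarian surface epithelial or stem cells of p53-/- C57BL/6 mice and transduced with Hras and myc. Each genotype gave 1 library, from tumors of 4 WT or 4 TSK mice that were pooled, all female C57BL/6 animals 6 to 8 weeks old. TSK mice carry the tight skin duplication within Fbn1, whereas the injected SO cells came from the same line in both groups. The values describe these 2 libraries, and no test between genotypes was possible.

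Simple epithelia assemble keratin filaments from pairs, a type II keratin such as Krt8 with a type I keratin such as Krt18 or Krt19. Cdkn2a encodes the cell cycle inhibitors p16Ink4a and p19Arf, which act through the Rb and p53 pathways. H19 is a maternally expressed imprinted RNA of fetal tissues, and Mgp encodes matrix Gla protein, a vitamin K-dependent inhibitor of calcification. Wt1 encodes a transcription factor of the gonads and the mesothelium, Pax8 one of Müllerian epithelia, and Msln a surface protein of mesothelial cells and many ovarian cancers. Lgals7 encodes galectin-7, a sugar-binding protein best known from stratified epithelia.

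The counts are unique molecular identifiers (UMIs), each standing for 1 RNA molecule captured at its 3′ end. The WT library held 21225411 UMIs in 2332 barcodes and the TSK library 48296765 UMIs in 4436 barcodes. In each library, 263 barcodes were also found in the other library, and they were left out of the cells described here. Barcodes with at least 200 genes, at least 500 UMIs and at most 10% mitochondrial UMIs were kept as cells, with no upper limit. This left 1442 WT cells (median 7658 UMIs and 2122 genes) and 2961 TSK cells (median 7302 UMIs and 2366 genes). Cells over 10000 UMIs made up 36.2% of the WT cells and 42.6% of the TSK cells, with medians of 19192 and 27116 UMIs. Cells up to 10000 UMIs had medians of 5390 and 2879 UMIs. Levels are given as UMIs per 1000000 UMIs of the class of cells (CPM), and intervals are exact 95% intervals that cover counting error only.

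Each cell was placed by the raw UMIs of markers of 15 lineages, none of which is among the 10 genes. A lineage needed at least 3 marker UMIs, at least 10 per 10000 UMIs of the cell and at least 2 different markers. Cells that met this for no lineage are called marker-free. Of the WT cells, 513 (35.6%) were marker-free, 440 were T and NK cells, 186 macrophages and monocytes, 158 fibroblasts, 51 endothelial cells and 30 neutrophils. Of the TSK cells, 1686 (56.9%) were marker-free, 368 were macrophages and monocytes, 296 fibroblasts, 263 T and NK cells, 205 neutrophils and 55 endothelial cells. Marker-free cells with a UMI of at least 2 of the 10 genes are called candidate SO cells, 97 in WT and 1150 in TSK. For the level of any one gene, candidate SO cells were chosen by the other 9 genes, so that the gene itself did not choose its cells.

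The 10 genes together were mainly in marker-free cells. These cells held 81.1% of the 16102 UMIs of the 10 genes in WT, against 32.6% of the UMIs of all genes. In TSK they held 89.1% of 88302 UMIs, against 76.6% of all UMIs. Cells over 10000 UMIs held 97.5% of WT and 95.3% of TSK UMIs of these genes, against 72.4% and 86.5% of all UMIs. Fibroblasts held 12.5% and 6.72%, against 20.9% and 9.22% of all UMIs. T and NK cells held 0.298% and 0.165%. By gene, the share in marker-free cells was lowest in WT for H19 (43.4%) and Mgp (53.1%), followed by Krt8 (71.4%) and Pax8 (7 of 9 UMIs). A single cell with Schwann cell markers held 83 of the 294 WT Krt8 UMIs. In TSK the share in marker-free cells was lowest for Pax8 (21 of 28 UMIs), Krt19 (75.7%) and Mgp (75.9%), followed by H19 (88.3%). For Lgals7, Cdkn2a and Krt18 it was between 92.0% and 95.3% in both libraries.

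Candidate SO cells hold few lineage markers by choice. Their median mitochondrial share was 2.64% in WT and 2.73% in TSK, and their median depth was 32346 and 27176 UMIs. All 6 fibroblast markers had UMIs in them, summing to 185 CPM in WT and 143 CPM in TSK, whereas fibroblasts with fewer than 2 of the 10 genes reached 25603 and 22543 CPM. The most abundant of these markers was Dcn, which encodes the matrix proteoglycan decorin, with UMIs in 43.3% and 43.9% of candidate SO cells. Of the 5 endothelial markers, Pecam1 alone accounted for 142 of 157 UMIs in WT and 2337 of 2714 in TSK, while the endothelial cadherin gene Cdh5 had 1 and 26 UMIs. The T and NK markers summed to 21.6 and 4.35 CPM, with Cd3e and Trbc2 as the most abundant, and the macrophage markers to 18.4 and 12.9 CPM, both led by C1qa. The 7 skin keratinocyte markers summed to 9.85 and 9.54 CPM, led by Krt10, with 23 UMIs in WT and 269 in TSK. Krt15 (6 and 28 UMIs) and Trp63 (2 and 20) were also counted, Dsg3 had 0 and 1, and Krt5, Krt14 and Krt1 were at 0 in both libraries. Also at 0 were Upk3b and Lrrn4, of the 3 mesothelial markers, in WT.

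**Figure D1:**
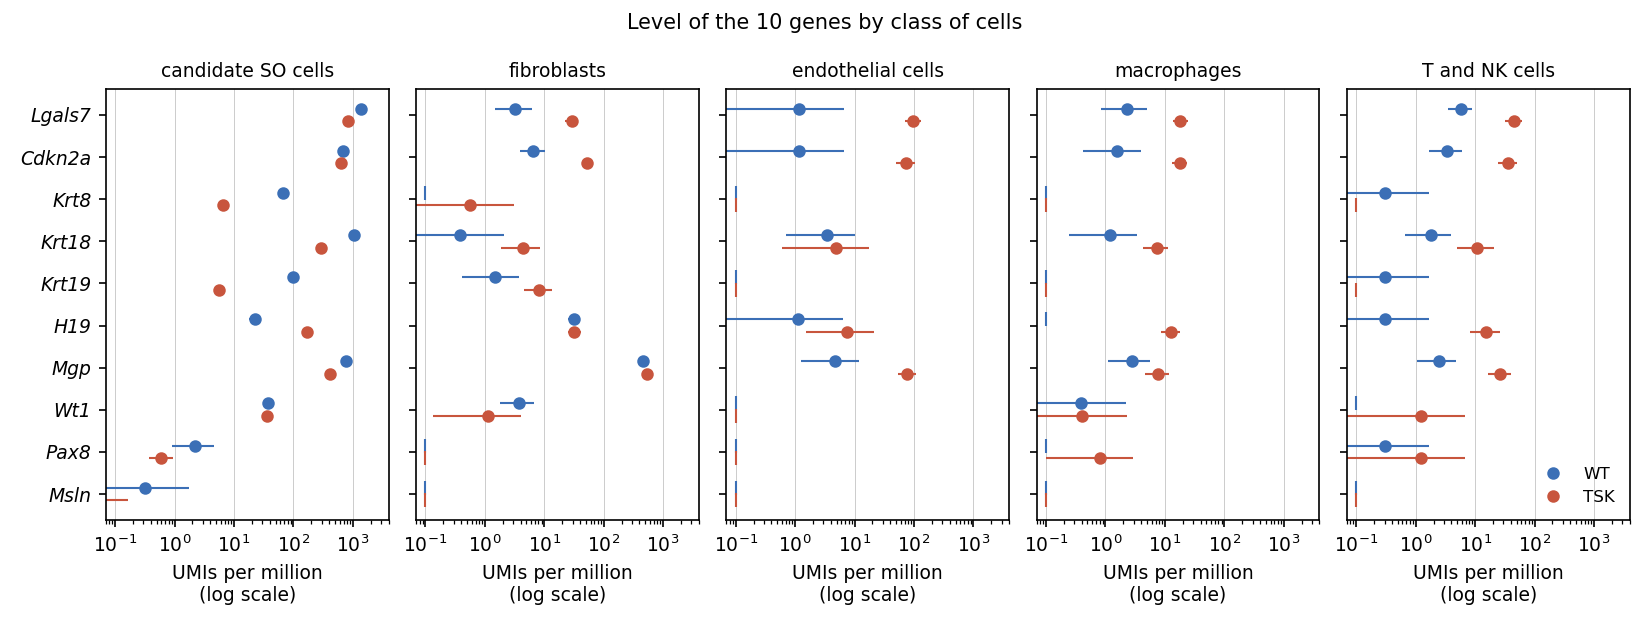
CPM on a log axis for each of the 10 genes, in candidate SO cells chosen by the other 9 genes and in 4 lineages with fewer than 2 of the other genes. Points are class sums, bars exact Poisson 95% intervals for counting, and small ticks at the left mark genes with no UMI. Lgals7, Cdkn2a and Krt18 lie further right in candidate SO cells than in any of the lineages, whereas Mgp is also high in fibroblasts, at 453 CPM in WT, where 1 cell held 781 of the UMIs, and 527 CPM in TSK.

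Lgals7 (ENSMUSG00000053522) lies on the plus strand of chromosome 7 in GRCm38, from 28863853 to 28866284. It reached 1388 CPM in WT candidate SO cells and 814 CPM in those of the TSK library. In WT the T and NK cells with fewer than 2 other genes were at 5.75 CPM (interval 3.46 to 8.98), fibroblasts at 3.22 (1.47 to 6.11), macrophages at 2.33 (0.856 to 5.07) and endothelial cells at 1.18, and the intervals of neighbours in this order overlapped. A single T and NK cell held 8 of the 19 UMIs of its class. In TSK the endothelial cells were at 97.7 CPM (71.2 to 131), neutrophils at 50.9 (31.1 to 78.6) and the T and NK cells at 45.1 (31.9 to 61.9). Fibroblasts were at 29.4 (22.6 to 37.6) and macrophages at 18.3 (13.5 to 24.4). Neighbours in this order overlapped in their intervals. The endothelial value rested on 8 cells, 1 of which held 21 of the 45 UMIs, so that it is not ranked above the others. T and NK cells should lack Lgals7. Their share with at least 1 UMI was 2.74% of 438 WT cells and 12.6% of 253 TSK cells, although the TSK T and NK cells were shallower, with a median of 3143 against 6884 UMIs. Shares of cells at or below these are not read as expression, and the part of free RNA in them was not tested.

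Cdkn2a (ENSMUSG00000044303; chromosome 4, 89274471 to 89294653, minus strand) was at 695 CPM in WT and 620 CPM in TSK candidate SO cells. T and NK cells with fewer than 2 other genes were at 3.34 CPM in WT and 35.9 CPM in TSK, and fibroblasts at 6.52 and 52.1 CPM. Endothelial cells were at 1.18 CPM in WT and 73.4 CPM (50.8 to 103) in TSK, where the interval overlapped with that of fibroblasts (42.8 to 62.8). Macrophages were at 1.55 and 17.8 CPM, and TSK neutrophils at 39.4 CPM. The p16Ink4a and p19Arf transcripts have separate start sites and share their 3′ end, so 3′ UMIs count their sum and cannot tell them apart. The sequences before both start sites are shown because the counted RNA can come from either. They are from RefSeq (GRCm38.p6, minus strand, chr4:89294654-89294869 before the distal start and chr4:89282193-89282442 before the proximal start), printed up to the first annotated exon base of GENCODE M21, and capitals mark the letters GGGCGG, a GC box:
Cdkn2a distal start: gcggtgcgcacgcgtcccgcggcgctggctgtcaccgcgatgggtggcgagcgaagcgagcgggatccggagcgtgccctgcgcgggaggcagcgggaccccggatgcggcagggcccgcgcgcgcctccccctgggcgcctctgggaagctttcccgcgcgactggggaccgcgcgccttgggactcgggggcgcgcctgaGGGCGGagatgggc
Cdkn2a proximal start: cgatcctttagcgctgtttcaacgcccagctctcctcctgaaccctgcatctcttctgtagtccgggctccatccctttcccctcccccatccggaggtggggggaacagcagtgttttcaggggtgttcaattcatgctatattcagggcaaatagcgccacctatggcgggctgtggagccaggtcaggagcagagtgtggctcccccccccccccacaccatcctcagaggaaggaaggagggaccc
The 250 bases before the distal start held 78.4% G and C and 40 CG pairs, and those before the proximal start 60.0% and 7, against a median of 52.4% G and C over 32841 promoters of this length. The letters GGGCGG, on either strand, occurred 2 times before the distal start, once beyond the printed stretch, and were absent before the proximal one. They were present in 32.7% of all promoters of this length.

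The keratins did not follow the usual pairing. Krt18 (ENSMUSG00000023043; chromosome 15, 102028180 to 102032027, plus strand), the type I keratin, reached 1050 CPM in WT and 290 CPM in TSK candidate SO cells. Krt8 (ENSMUSG00000049382; chromosome 15, 101996698 to 102004482, minus strand), the type II partner, had 209 UMIs there in WT and 218 in TSK, or 66.9 and 6.54 CPM. Of the 109 WT cells with a Krt18 UMI, 102 (93.6%) had none of Krt8. Of the 784 such TSK cells, 745 had none. In the deepest SO cells, marker-free cells over 10000 UMIs with both Lgals7 and Cdkn2a, 54 of 56 WT and 507 of 540 TSK cells with Krt18 had no Krt8 UMI. The reverse was rare, with 2 WT and 5 TSK cells that had Krt8 and no Krt18. Krt7, another simple type II keratin, had 2 UMIs in the 67 deepest WT cells and none in the 835 deepest TSK cells. The letters before both start sites are shown because the genes lie on opposite strands with starts 23698 bases apart in GENCODE M21 (sequences from RefSeq GRCm38.p6, chr15:102004483-102004592 on the minus strand for Krt8 and chr15:102027966-102028179 on the plus strand for Krt18). The letters of a TATA box (TATAAA), an E-box (CACGTG), an AP-1 site (TGANTCA) and a GC box (GGGCGG) were searched on both strands. None occurred in the 250 bases before either start, so nothing is in capitals:
Krt8: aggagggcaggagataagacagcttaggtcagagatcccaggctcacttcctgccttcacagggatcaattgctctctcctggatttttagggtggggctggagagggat
Krt18: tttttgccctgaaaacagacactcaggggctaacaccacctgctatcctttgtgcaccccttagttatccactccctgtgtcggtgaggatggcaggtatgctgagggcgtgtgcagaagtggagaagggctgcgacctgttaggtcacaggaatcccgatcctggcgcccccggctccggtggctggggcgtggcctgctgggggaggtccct
Of all promoters of this length, 12.4% held the TATA box, 6.02% the E-box, 6.75% the AP-1 site and 32.7% the GC box.

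A pair of WT cells carried most of the Krt8 and Krt19 UMIs of WT candidate SO cells. One of these had 21247 UMIs in all, with 59 of Krt8, 60 of Krt18 and 51 of Krt19. The other had 47374 UMIs, with 138, 173 and 230. Neither had a UMI of Lgals7, Cdkn2a, H19, Mgp or Wt1. Both had UMIs of Epcam (9 and 31), the epithelial cadherin gene Cdh1 (4 and 14), Krt7 (6 and 28) and the tight junction gene Cldn7 (2 and 14), and the deeper cell had 19 of Muc16, the gene of the ovarian cancer antigen CA-125. Without these 2 cells the WT candidate SO cells were at 3.93 CPM for Krt8 and 8.45 CPM for Krt19, while Krt18 stayed at 998 CPM. A further WT cell with 83 Krt8 UMIs had 75 of Lgals7 and 45 of Cdkn2a and carried Schwann cell markers. No cell of the TSK library reached 50 UMIs of Krt8 or Krt19.

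**Figure D2:**
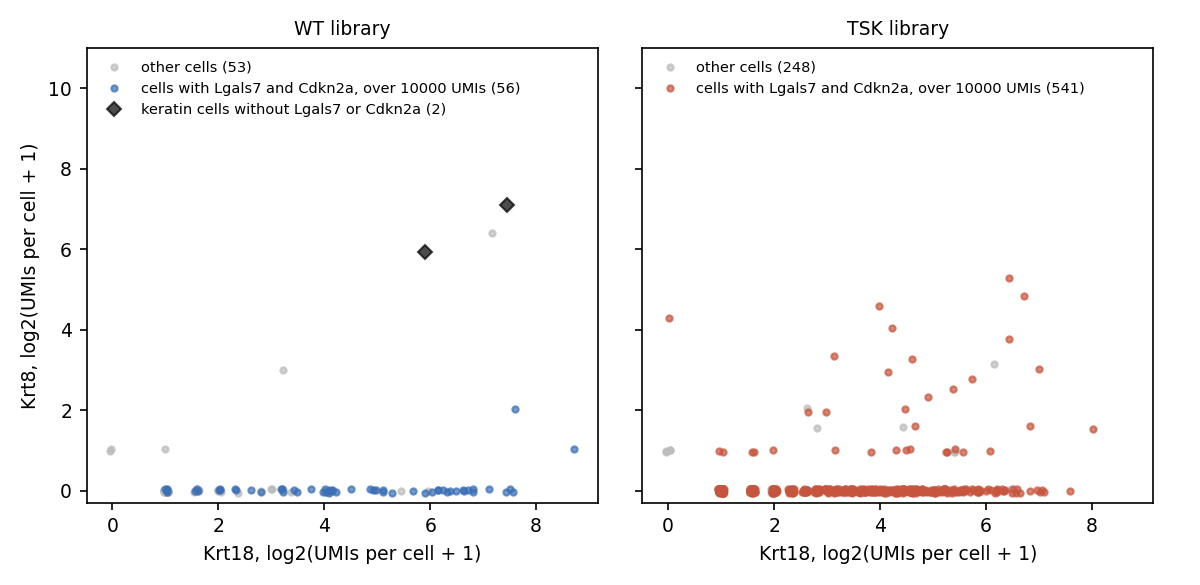
Krt8 against Krt18 UMIs in each cell with a UMI of either, on log2(UMIs + 1) axes with a small random shift. Most points lie on the floor of the plot, with Krt18 and no Krt8 (102 of 109 Krt18 cells in WT and 745 of 784 in TSK), and the black diamonds are the 2 WT keratin cells without Lgals7 or Cdkn2a.

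Krt19 (ENSMUSG00000020911; chromosome 11, 100140810 to 100148665, minus strand) was rare outside the keratin cells just described. It had a UMI in 6 of the 67 deepest WT cells (8.96%) and in 30 of the 835 deepest TSK cells (3.59%). All 30 of those TSK cells also had Krt18, and 3 of them had all 3 keratins. One TSK cell held 42 of the 175 UMIs. In fibroblasts with fewer than 2 other genes Krt19 had 4 UMIs in WT and 15 UMIs in TSK. The TSK fibroblasts were then at 8.28 CPM (4.64 to 13.7) and the TSK candidate SO cells at 5.70 CPM (4.92 to 6.57), with intervals that overlapped.

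H19 (ENSMUSG00000000031; chromosome 7, 142575529 to 142578143, minus strand) was the single gene of the 10 with a counting interval above 0, TSK over WT, in candidate SO cells. These cells held 71 UMIs (22.8 CPM) in WT and 5693 UMIs (172 CPM) in TSK. In WT it was also a fibroblast gene, at 31.2 CPM (25.1 to 38.2) in fibroblasts with fewer than 2 other genes. Those of the TSK library were at 32.2 CPM (24.8 to 41.2), so that the fibroblasts of both libraries overlapped in their intervals. TSK neutrophils with fewer than 2 other genes, at 24.7 CPM (11.8 to 45.4), and T and NK cells, at 15.5 CPM (8.24 to 26.5), overlapped with the TSK fibroblasts. Fibroblasts held 50.6% of the 235 H19 UMIs of the WT library and 3.58% of the 6736 of the TSK library. In WT 1 T and NK cell and no macrophage with fewer than 2 other genes had an H19 UMI, against 15.5 CPM in the T and NK cells and 12.7 CPM in the macrophages of the TSK library.

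Within TSK cells, H19 was unevenly spread. Of the 835 deepest SO cells, 359 (43.0%) had a UMI, 155 (18.6%) reached 100 CPM and 29 (3.47%) reached 1000 CPM. The highest cell was at 13765 CPM, and 18 cells (2.16%) held at least as many of the UMIs as all the others. Of the 67 deepest WT cells, 12 (17.9%) had a UMI and 3 (4.48%, interval 0.933 to 12.5%) reached 100 CPM. A single WT cell held 37 of the 66 UMIs (56.1%). Thinned to 10000 UMIs per cell, H19 was in 7.53% of WT and 27.4% of TSK cells.

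Mgp (ENSMUSG00000030218; chromosome 6, 136872435 to 136875823, minus strand) was shared by SO cells and fibroblasts. In candidate SO cells it was at 762 CPM in WT and 417 CPM in TSK. In fibroblasts with fewer than 2 other genes it was at 453 CPM (430 to 477) and 527 CPM (497 to 557). The WT fibroblast value rested largely on 1 cell with 781 of the 1437 Mgp UMIs, and without it these fibroblasts stood at 211 CPM. In the deepest SO cells the range was wide, from 0 to 8705 CPM in the WT (median 131) and from 0 to 21182 CPM in TSK (median 110). The 6 highest WT cells (8.96%) and the 44 highest TSK cells (5.27%) held at least as many Mgp UMIs as all the others.

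Of the ovarian and mesothelial genes, Wt1 alone was regularly counted. Wt1 (ENSMUSG00000016458; chromosome 2, 105126529 to 105173616, plus strand) was at 37.5 CPM in WT and 35.4 CPM in TSK candidate SO cells, with a UMI in 44.8% and 33.9% of the deepest SO cells. In fibroblasts with fewer than 2 other genes it was at 3.71 and 1.11 CPM, and at most 1.23 CPM in T and NK cells. Pax8 (ENSMUSG00000026976; chromosome 2, 24420560 to 24475599, minus strand) had 7 UMIs in WT and 20 in TSK candidate SO cells. Msln (ENSMUSG00000063011; chromosome 17, 25748613 to 25754378, minus strand) had 1 UMI in each library, in 1 of the deepest SO cells each. For Msln this is under the 3 counts that a count of 0 would allow, and no level was read from it.

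**Figure D3:**
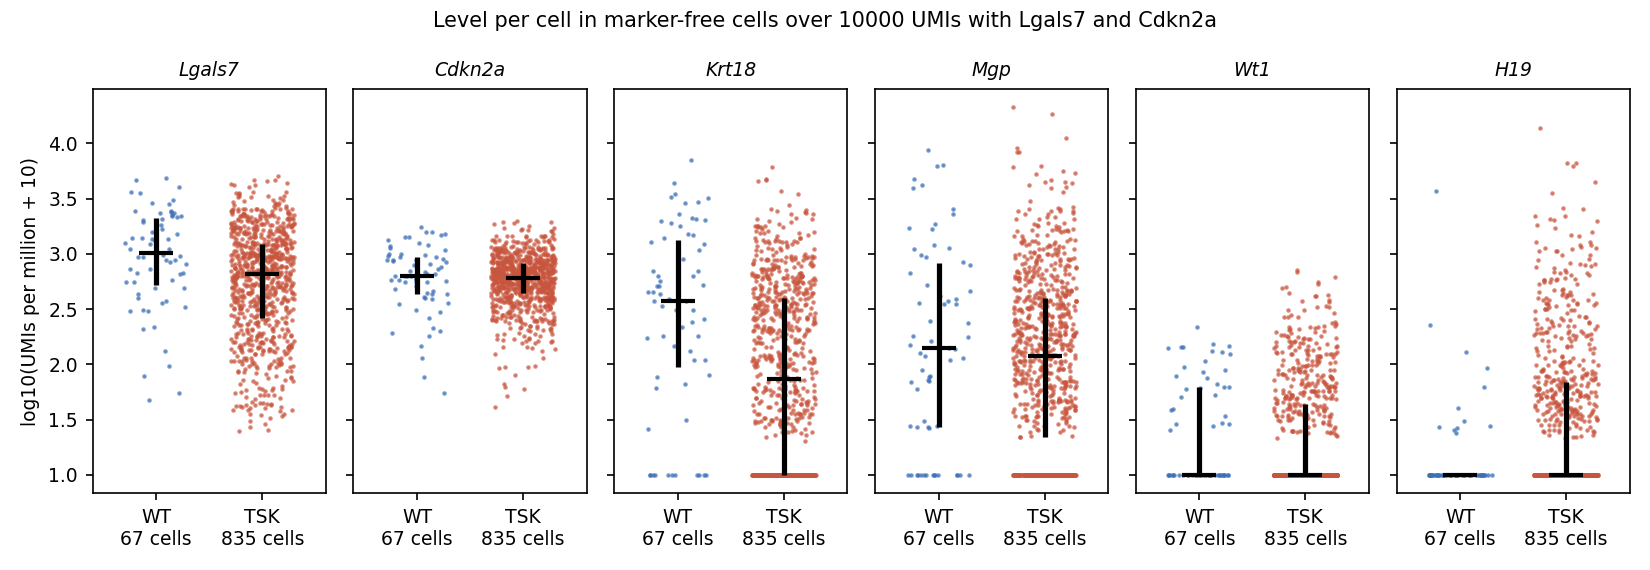
Level per cell of 6 of the genes, as log10(CPM + 10), in the marker-free cells over 10000 UMIs with Lgals7 and Cdkn2a (67 WT and 835 TSK cells). Points are cells, black bars run from the lower to the upper quartile and the cross line is the median; Cdkn2a is the narrowest, with medians of 618 and 601 CPM, and Krt18 sits lower in TSK, with medians of 368 and 62.9 CPM.

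The genes differed in how evenly the deepest SO cells carried them. These cells were chosen by a UMI of Lgals7 and Cdkn2a, so that their presence is given by the choice, but not their level. Cdkn2a was the most even, with quartiles of 422 and 932 CPM in WT and 429 and 812 CPM in TSK. Lgals7 ran from a quartile of 513 to one of 2107 CPM in WT and from 254 to 1230 CPM in TSK. Krt18 had a UMI in 64.7% of the TSK cells (540 of 835) and reached 1000 CPM in 63 of them (7.54%, interval 5.85 to 9.55%). In WT 56 of 67 cells had a Krt18 UMI, and 20 (29.9%, interval 19.3 to 42.3%) reached 1000 CPM.

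Levels of Krt18, Mgp and Wt1 went together across the deepest SO cells in both libraries. Spearman's rho was 0.39 in WT and 0.40 in TSK cells for Krt18 with Mgp, 0.35 and 0.31 for Krt18 with Wt1, and 0.36 and 0.34 for Mgp with Wt1. Lgals7 with Mgp gave 0.31 and 0.28, Lgals7 with Krt18 0.17 and 0.38, and Lgals7 with Cdkn2a 0.44 and 0.09. Cdkn2a with Wt1 was at -0.06 and -0.23. H19 stayed between -0.13 and 0.12 with each of Lgals7, Cdkn2a, Krt18, Mgp and Wt1 in both libraries. These are descriptions over 67 and 835 cells, the cells of 1 library share their preparation and free RNA, and depth differed from cell to cell.

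Over all cells, Lgals7, Cdkn2a, Krt18 and Mgp were counted in the same cells more often than the product of their separate shares. Thinned to 500 UMIs per cell, Lgals7 was in 3.14% of the WT cells and Cdkn2a in 2.16%, and both were in 0.883%, which is 13.0 times the product. In TSK they were in 14.3%, 11.9% and 3.31%, or 1.94 times the product. Such a ratio can rise higher where the genes are in fewer cells. Candidate SO cells were 6.73% of WT and 38.8% of TSK cells, so the ratios of the libraries are not compared. Lgals7 with Krt18 gave 13.0 and 2.59 times, and Krt18 with Mgp 8.14 and 2.08 times. Within the deepest SO cells, thinned to 10000 UMIs, the same ratio was 1.11 and 1.23 for Krt18 with Mgp and 1.24 and 1.34 for Mgp with Wt1. Lgals7 with Cdkn2a was at 1.01 and 1.00 there, but both genes chose these cells. Krt8 with Krt18 was at 1.32 in WT, where 2 cells had both, and at 1.78 in TSK, where 33 did.

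Genes with the most similar pattern over all cells above 10000 UMIs (522 WT and 1260 TSK cells, 6791 genes ranked by the lower of the Pearson correlations in the libraries) are given next. For Lgals7 the closest was Cdkn2a (0.90 in WT and 0.63 in TSK), followed by the ribosomal protein gene Rpl28 (0.60 and 0.58). For Cdkn2a the closest were Phgdh, the first enzyme of serine synthesis (0.68 and 0.68), Cenpv (0.68 and 0.66) and Rpl14 (0.64 and 0.64). Krt18 was closest to Lgals7 (0.70 and 0.53), Prkg2 (0.67 and 0.49) and Areg, a ligand of the EGF receptor (0.54 and 0.45). Krt8 was closest to Krt18 (0.35 and 0.21), Krt19 to Baiap2l1 (0.25 and 0.24), and H19 to Igfbp4 (0.27 and 0.23) and Dlk1 (0.21 and 0.22). Mgp was closest to Krt18 (0.40 and 0.33), Cald1 (0.49 and 0.31) and Ifitm3 (0.32 and 0.31), and Wt1 to Atp1b1 (0.40 and 0.38), Grik2 (0.34 and 0.34) and Sema3a (0.40 and 0.33). No gene reached 0.2 in both libraries for Pax8 or Msln.

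Deeper marker-free cells held more of the 10 genes. Of the WT marker-free cells up to 10000 UMIs, 84.4% had none of the genes and 5.59% had at least 2. Of those over 10000 UMIs, 43.2% (67 of 155) had none and 49.7% had at least 2. In TSK the corresponding values were 40.9% and 34.9% up to 10000 UMIs, and 0.558% (5 of 896) and 97.5% above. The 67 deep marker-free WT cells with none were also shallower, with a median of 11954 UMIs against 29364, 37206 and 42699 UMIs in those with 3, 4 and 5 of the genes, and the part of depth in this was not tested.

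**Figure D4:**
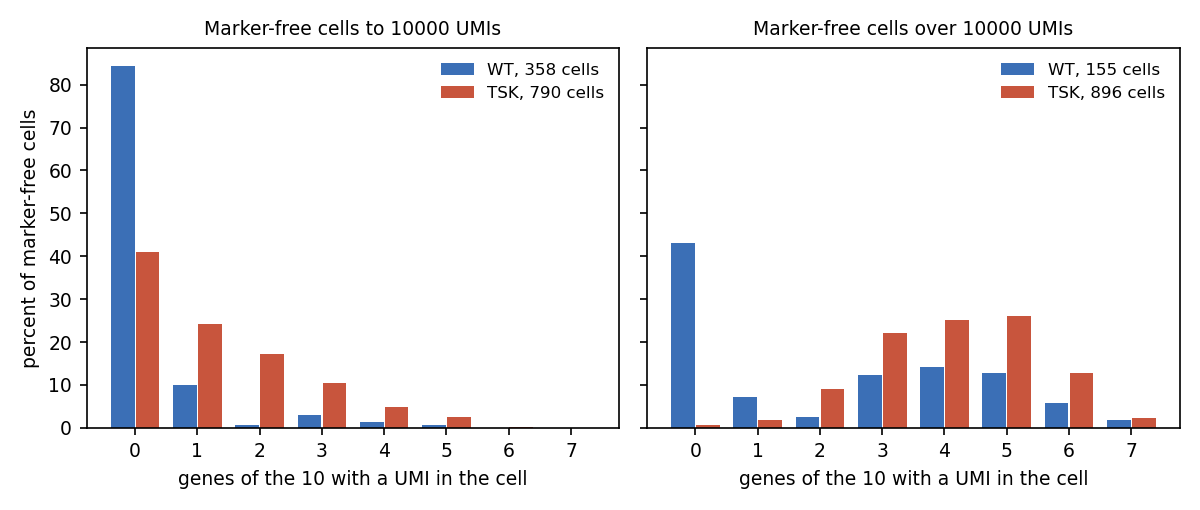
Percent of marker-free cells with 0 to 7 of the 10 genes, by library, for cells up to 10000 UMIs and over 10000 UMIs. Over 10000 UMIs, 43.2% of WT and 0.558% of TSK cells have none of the genes, and cells with 3 to 5 genes are the most frequent in TSK.

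Candidate SO cells were 97 of 1442 cells in WT (6.73%, interval 5.49 to 8.14%) and 1150 of 2961 in TSK (38.8%, interval 37.1 to 40.6%), a log2 ratio of 2.53 (interval 2.23 to 2.84). Among cells up to 10000 UMIs the shares were 2.17% and 16.2%, and among deeper cells 14.8% and 69.4%. Thinned to 500 UMIs per cell, they were 36 of 1442 cells and 244 of 2961 cells (8.24%), a log2 ratio of 1.72 (1.21 to 2.27). Immune cells should lack most of these genes, and at least 2 of the 10 were counted in 0.682% (WT) and 6.46% (TSK) of T and NK cells, in 0.538% and 12.5% of macrophages and monocytes, and in 0 of 30 and 11.7% of neutrophils. Deep neutrophils were few, 11 in TSK, and all 11 had at least 2 of the genes.

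WT against TSK was then compared within candidate SO cells. The interval of the log2 ratio (TSK over WT) lay below 0 for 7 of the 10 genes and above 0 for 1, H19, while Wt1 and Msln had intervals that held 0. Of the 8 genes with at least 50 UMIs over both libraries and 10 in each, the interval lay below 0 for 6, of which Krt8 and Krt19 rested on the 2 WT keratin cells. Among all 11105 genes with this many UMIs, 21.5% had an interval below 0 and 32.8% one above 0, and the median log2 ratio was 0.09. The list was chosen with these values known, and its counts are a description. Of the 8 genes with this many UMIs, H19 was at least 2-fold higher in TSK, as were 5.36% of all genes tested, and Krt8, Krt18 and Krt19 were at least 2-fold lower, as were 8.94%. For H19 the log2 ratio was 2.91 (2.58 to 3.27). Krt18 was at -1.86 (-1.92 to -1.80), Mgp at -0.87 (-0.93 to -0.81), Lgals7 at -0.77 (-0.82 to -0.72) and Cdkn2a at -0.17 (-0.23 to -0.10). Wt1 was at -0.08, and its interval (-0.36 to 0.20) held 0.

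The ratios of the rarer keratins rested on the 2 WT keratin cells. Krt8 was at -3.35 with them and at 0.74 (-0.10 to 1.71) without them. Krt19 was at -4.10 with them and at -0.57 (-1.16 to 0.08) without them, so that both intervals held 0 once these cells were left out, and Krt18 was then at -1.79. In the deepest SO cells, which leave these cells out, Krt8 had 4 UMIs in WT and 212 in TSK, a log2 ratio of 2.27 (0.89 to 4.16), and 3 of the 4 WT UMIs were in 1 cell. Krt19 was at -0.18 (-0.88 to 0.61) there. Pax8, with 7 and 20 UMIs, was at -1.89 (-3.19 to -0.41), and at -1.35 (-2.97 to 0.68) without the cell with most Pax8 UMIs in each library.

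The value for H19 moved with the barcodes found in both libraries. With them kept, its log2 ratio was 1.67 (1.49 to 1.85), and 23 of the 251 such WT barcodes that passed the other filters were over 10000 UMIs with both Lgals7 and Cdkn2a. Krt18 was then at -1.71, Lgals7 at -0.60 and Mgp at -0.59, while Wt1 was at -0.48 (-0.68 to -0.28). Without the cell with most H19 UMIs in each library it was 3.89 (3.41 to 4.42). With each cell given equal weight, H19 was at 1.81 and Lgals7 at -0.48.

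Over all cells the picture was another one. There, 6 of the 10 genes had an interval above 0, 2 one below 0 (Krt8 and Krt19) and 2 one that held 0. The share of all genes with such intervals over all cells was not computed. These counts are therefore not read as a result about the 10 genes. Without the 3 WT cells with at least 50 UMIs of Krt8 or Krt19, the direction turned, with Krt8 at 2.63 (1.85 to 3.52) instead of -1.75 and Krt19 at 1.26 (0.76 to 1.78) instead of -1.78. Lgals7 was at 270 CPM in WT and 625 CPM in TSK (1.21), Cdkn2a at 140 and 489 CPM (1.80), Wt1 at 8.26 and 29.2 CPM (1.82) and Mgp at 266 and 401 CPM (0.59). Krt18, at 208 and 231 CPM, was 0.15 over all cells, 2.02 in cells up to 10000 UMIs and -0.13 in deeper cells. A ratio over all cells cannot tell more SO cells from more RNA of the gene in each.

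**Figure D5:**
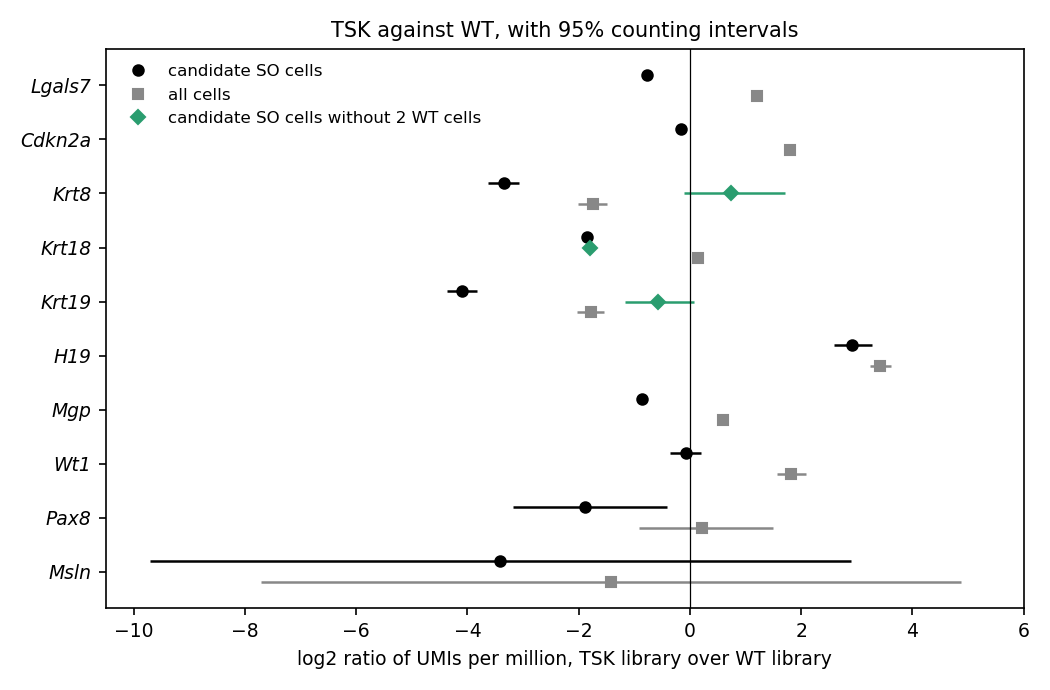
Log2 ratio of CPM, TSK over WT, for each gene in candidate SO cells (circles), in all cells (squares) and, for the keratins, in candidate SO cells without the 2 WT keratin cells (diamonds), with 95% counting intervals. Lgals7, Cdkn2a, Krt18 and Mgp are to the left of 0 in candidate SO cells and to the right in all cells, the interval of Wt1 in candidate SO cells holds 0, and Krt8 crosses 0 when the 2 cells are left out.

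Other genes of the same pathways were read in the deepest SO cells, against T and NK cells, macrophages, fibroblasts and endothelial cells with fewer than 2 of the 10 genes. Of 14279 genes with at least 50 UMIs over these classes, 4.46% were at least 2-fold above each of the 4 lineages in both libraries, and 33.3% were at least 2-fold below the highest of them. A gene could reach 50 UMIs through the lineages alone, which favours a call of below. Between the libraries the median log2 ratio of 10708 genes in these cells was 0.11, and the ratios below are to be read against it.

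Of 14 other simple epithelial genes, 4 had enough UMIs. Epcam was above the lineages, at 7.37 CPM in WT and 15.6 CPM in TSK, and was at least 2-fold higher in TSK, as were 5.44% of all genes tested. Cdh1 was below, with 3 and 15 UMIs, and the highest lineage was the macrophages at 82.4 and 30.8 CPM. It had enough UMIs only through the lineages, so its call of below follows from the macrophage level. Cldn4 (0 and 15 UMIs) and Esrp1 (1 and 18) had similar counts in these cells but no high lineage, and were not tested. Cldn6, Krt20 and Muc16 had no UMI in these cells of either library. Of 9 mesenchymal genes, Cdh2, which encodes N-cadherin, was above at 73.4 and 65.5 CPM, where fibroblasts reached 19.1 and 24.2 CPM. Vim, the mesenchymal intermediate filament gene, was at 1660 and 1346 CPM, with endothelial cells higher at 2686 and 2823 CPM. Zeb1, Zeb2, Snai1 and S100a4 were below.

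Of 12 ovarian surface and gonadal genes, 7 had enough UMIs and 1 was above. This was Gata4, a gonadal transcription factor gene, at 21.8 and 17.9 CPM, where the highest lineages were measured at 0.305 CPM (T and NK cells, WT) and 1.23 CPM (macrophages, TSK). In TSK endothelial cells a count of 0 would allow up to 7.40 CPM. Nr5a1, which encodes the steroidogenic factor SF-1, was at 11.2 and 10.5 CPM. Gata6, at 35.1 and 15.8 CPM, was at least 2-fold lower in TSK, as were 7.96% of all genes tested. Its level in fibroblasts was 21.0 and 23.1 CPM. The Müllerian genes Hoxa9 and Hoxa10 were at 0 in WT and had 2 and 1 UMIs in TSK cells, and Foxl2, a granulosa cell gene, had 0 and 2 UMIs.

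Of 10 other imprinted genes, Dlk1 was above, at 129 and 215 CPM, against 3.43 CPM in WT fibroblasts and 7.40 CPM in TSK endothelial cells. Igf2, the neighbour of H19 at the same imprinted locus, had no UMI in WT and 54 UMIs (1.73 CPM) in TSK cells. Meg3, Peg3, Plagl1, Grb10, Mest, Cdkn1c and Ndn were below, with Meg3 at 0.702 and 0.703 CPM against 1147 and 910 CPM in fibroblasts. Of these, Meg3 (2 and 22 UMIs), Peg3 (0 and 2) and Ndn (1 and 0) had enough UMIs for this call only through the lineages. Between the libraries, 4 of the 10 imprinted genes had enough UMIs, with a median log2 ratio of 0.73. These were Peg10 (0.80, interval 0.49 to 1.14), Dlk1 (0.74, 0.59 to 0.90), Grb10 (0.71, 0.19 to 1.28) and Mest (0.39, 0.14 to 0.64). None of the 4 was at least 2-fold higher in TSK, whereas 5.44% of all genes tested were. Cdkn1c (5 UMIs in WT and 325 in TSK) was under the limit of 10 per library, at 2.56 with an interval above 0. Upk1b, of the ovarian surface and gonadal list, was also under it with 10 and 3 UMIs, at -5.19 (-7.69 to -3.24).

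Of 13 genes of the Ink4, p53 and cell cycle entry list, 2 were above. Cdkn2b, next to Cdkn2a on chromosome 4 and encoding p15Ink4b, was at 67.1 and 60.6 CPM, and Cdk4, whose kinase p16Ink4a inhibits, was at 190 and 250 CPM. Cdkn1a, a p53 target gene, was below, at 81.5 and 54.8 CPM against 461 and 473 CPM in macrophages, and Mdm2 and Rb1 were below as well. Trp53 itself had UMIs, at 60.1 and 111 CPM, although the line is p53-/-. A 3′ count can lie outside the deleted part of a gene and does not check the genotype. Myc was at 88.5 and 167 CPM and Hras at 85.7 and 114 CPM, and whether the introduced copies are counted there is not given in the sources used here.

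Among 7 other galectin genes none was above the lineages, with Lgals1 at 1896 CPM in WT and 1130 CPM in TSK cells. Lgals3 (209 and 86.6 CPM) and Lgals8 (40.7 and 19.5 CPM) were at least 2-fold lower in TSK cells, as were 7.96% of all genes tested. Of 6 genes of vitamin K use and mineralization, Ank, which exports pyrophosphate, was above at 486 and 490 CPM, and Spp1, which encodes osteopontin, was at 7376 and 3260 CPM, at least 2-fold lower in TSK. Ggcx, the enzyme that modifies matrix Gla protein, was below, at 9.48 and 6.94 CPM. Fbn1, the gene of the TSK duplication, was at 110 CPM in WT and 49.3 CPM in TSK candidate SO cells (log2 ratio -1.15, interval -1.32 to -0.98).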

How the data were processed

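The authors pooled tumors by genotype, made 1 10x Genomics 3′ library per pool, and deposited raw UMI counts per gene and barcode from Cell Ranger 7.1.0 (per the file headers; build mm10 in the submitters' processing notes). The deposited counts carry no normalization. Of the 32285 gene IDs, 99.6% (32158) matched GENCODE M21 for GRCm38, the source of gene coordinates. RefSeq promoter sequences were found for 5 of the 10 genes.

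Cells were filtered, placed by 15 marker lists and summed by class with Python 3.11.15, numpy 2.4.6, scipy 1.17.1 and pandas 2.3.3; figures used matplotlib 3.10.9. The thresholds for a lineage were set after the data were seen. Doublets were not called, and cells of several lineages were kept apart as mixed. Shares have exact binomial (Clopper-Pearson) intervals, CPM exact Poisson and ratios exact conditional intervals. Only the ratio intervals and the thinning were tested on simulated data. A count of 0 was taken to allow 3 counts. Thinning gave the expected share at a fixed depth, and for candidate SO cells 1 random draw. Ratios over all genes needed 50 UMIs in both libraries together and 10 in each. Named genes are the 10, the lineage markers, 7 gene lists, Fbn1, and up to 3 most similar genes each with a correlation of at least 0.2 in both libraries, of which 1 is not reported here. The 10 genes and all lists were chosen with earlier results of these data known.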

Additional observations from a re-analysis of the deposited data

Results flagged for a closer look

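A signal of these genes appeared in barcodes that the comparisons left out. The barcodes found in both libraries that passed the other filters held Lgals7 at 647 CPM in WT and 297 CPM in TSK, and H19 at 89.5 and 213 CPM. Among these, 23 of 251 WT and 2 of 255 TSK barcodes were over 10000 UMIs with both Lgals7 and Cdkn2a, and they held 99.9% and 82.3% of the Lgals7 UMIs. Barcodes over 10% mitochondrial UMIs held Lgals7 at 55.2 CPM in WT and 126 CPM in TSK, and H19 at 9.20 and 52.5 CPM.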

How the results depend on the processing

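No paired analysis was possible because each genotype had 1 library. Candidate SO cells were a larger share of the TSK library under all 6 alternatives, and Lgals7 was found with Cdkn2a above the product of their shares at each depth. That ratio was 13.0 in WT thinned to 500 UMIs, 11.1 at 2000 and 7.29 without thinning, and 1.94, 1.73 and 1.72 in TSK. The number of genes with an interval below 0 was 4 instead of 7 in cells up to 10000 UMIs, where fewer UMIs were counted, and 5 without the 2 WT keratin cells. The number above 0 was 2 instead of 1 with cells of any lineage, where Cdkn2a was at 0.09, and with at least 3 of the other 9 genes, where Krt8 was at 0.93. For these counts no share over all genes was computed under the same settings, and they are a description only. Krt8 was at 0.74 without the 2 WT keratin cells, an alternative added after seeing the data, as were those for the keratins over all cells and Mgp in fibroblasts, those without the highest cell per gene and the thinned share of candidate SO cells. The share of the 10 genes' UMIs in marker-free cells was 73.4% in WT and 73.0% in TSK up to 10000 UMIs, and 85.6% and 93.4% with 20 marker UMIs per 10000 for a lineage. The share of all UMIs under these settings is not given here, so that no excess over it is read from them. Apart from the cells and settings named, the cause was not tested. With equal weight for each cell no interval was computed. Intervals cover counting error, not mice or libraries, and cells with few UMIs limit Krt8, Krt19, Pax8 and Msln.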
